A study of Mus musculus with 30 samples.

Results

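A series of 5 time points is described here: p53 LSL/LSL mouse embryonic fibroblasts (MEFs) that had received AdenoGFP and then spent 0, 1, 3, 6 or 9 h in 500 nM doxorubicin. The 5 arrays were chosen by their titles and virus label, not by any measured value, and are 5 of the 30 Affymetrix arrays in the series, with 1 array at each time. The cells came from E13.5 embryos of strain C57BL/6 x 129SvJ and grew in DMEM with 10% FBS, and RNA was extracted with Trizol. The LSL cassette, a stop signal between loxP sites, keeps the p53 gene silent until Cre recombinase removes it. AdenoGFP, an adenovirus that delivers green fluorescent protein, is the control virus, so these cells stayed without p53. AdenoCRE, which delivers Cre and restores p53, was given to the same MEFs with the same times and dose, and its 5 arrays are used below as the comparison. Virus was present for 24 h in every group. The 0 h array is labelled untreated, and no untreated array was taken at a later hour. The effects of doxorubicin and of time since handling therefore cannot be told apart. The labels do not say whether arrays came from separate cultures or how many embryos were used. The question addressed is which genes change with hours of DNA damage when p53 is absent.

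Doxorubicin is an anthracycline that slides between DNA bases and traps topoisomerase II on broken DNA. Cells meet such damage with checkpoint kinases that stop DNA synthesis and entry into mitosis, and with p53, which turns on genes such as Cdkn1a, the inhibitor of cyclin-dependent kinases. Stress and growth factor signals also switch on immediate early genes, transcription factors whose RNAs appear within an hour and decay quickly because feedback phosphatases and RNA-binding proteins act on the pathway and on the RNAs.

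All values are log2 RMA signals, so a difference of 1 is 2-fold, and 12674 genes above the low-signal limit were tested. Levels of different genes are not compared, because probe sets differ in brightness. The 6 h AdenoGFP array stood apart. Its median over tested genes was 8.016 against 8.199 to 8.324 on the other 4, it correlated with them at 0.981 to 0.9879 against 0.9869 to 0.9941 among themselves, and 225 genes lay at least 2-fold from the mean of the other 4 arrays against 13 to 89 genes for each other array. Several results that rest on it are given with and without it. Cell type markers were judged against a limit of 4.376, set on the AdenoGFP arrays alone, and not against the 4.544 used for tested genes. Fibroblast identity was checked against 11 markers, all of them above that limit, with a summed level of 129.7 to 132.5 over the 5 arrays. Markers of other cells that an embryo preparation could hold were also measured: 5 of 9 macrophage, 3 of 8 endothelial, 6 of 9 epithelial and 5 of 9 skeletal muscle markers passed the limit, with summed levels of 43.7 to 46.2, 32.1 to 34.7, 46.7 to 49.1 and 40.7 to 41.8. Ptprc, Adgre1, Itgam, Pecam1, Vwf and Cdh1 were near background. Csf1r (mean 6.63), Cd14 (6.15), Lyz2 (6.42), Kdr (6.52), Epcam (6.97) and Krt19 (8.11) were above it. Of neural markers with a probe set 6 of 9 passed, among them Ncam1 (11.48) and Nes (9.13). Of adipocyte and chondrocyte markers 8 of 10 did, among them Lpl (9.19) and Col2a1 (8.72). The part of such cells in the results was not tested. Trp53 itself is not analysed here. Cdkn1a, its best known target, read 8.46, 8.88, 9.20, 8.73 and 9.32 at 0, 1, 3, 6 and 9 h in the AdenoGFP arrays and 11.96 to 13.22 in the AdenoCRE arrays, so every AdenoGFP array lay below every AdenoCRE array.

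These comparisons were made on the AdenoGFP arrays: a slope on hours, the 6 and 9 h arrays against the 0 and 1 h arrays, and the change of each later array from 0 h. With 1 array per time the error of the slope is the scatter of the 5 arrays about a straight line, and a gene that rises and falls again counts as scatter. No gene passed the limma test of the slope at an adjusted p below 0.05. At an unadjusted p below 0.05 the slopes of 966 genes (7.62%) were upward and 442 (3.49%) downward, and the smallest adjusted p was 0.197. The late against early test also called 0 genes, with 786 (6.2%) higher and 778 (6.14%) lower at an unadjusted p below 0.05. That count rested on the 9 h array: without it limma called 151 genes higher and 592 lower, from the 6 h array alone against 0 and 1 h. A single array at a single hour allows no test of its own. Changes at 1, 3, 6 and 9 h were therefore also tested over both viruses together, with 2 arrays at each hour and virus as a term. A gene called there moved the same way from 0 h in AdenoGFP and AdenoCRE cells, within the scatter between viruses. All 4 changes share the 0 h arrays and are given side by side. Where such a call is given below, its estimate is the mean over both viruses ± SE. The calls at 6 h rest on few arrays: without the AdenoGFP 6 h array, or without the AdenoGFP 0 h array, limma called 0 genes at 6 h in either direction, and without the AdenoGFP 3 h array 1 higher and 2 lower.

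The immediate early transcription factors were higher at 1 h, the earliest time after 0 h. All 24 listed members were above 0 h at 1 h, against 44.4% of all tested genes, and 12 of them were at least 2-fold higher, against 0.395% of all tested genes. Of the 24, 15 rose in the fit over both viruses, where 0.3% of tested genes did. For 20 of the 24 the 1 h array was the highest of the 5, against 17.4% of tested genes. The median change was 1.08 at 1 h, 0.39 at 3 h, 0.00 at 6 h and -0.01 at 9 h. In AdenoCRE cells the medians were 1.37, 0.41, 0.35 and 0.14. The members of this and the later lists were chosen with earlier results of these data known. Shares of list members beside those of all tested genes are therefore descriptions and not independent tests.

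Fos, which joins Jun in the AP-1 factor, read 7.71, 11.37, 8.70, 9.03 and 8.61 at 0, 1, 3, 6 and 9 h. The 1 h array was far above the rest, and the later arrays did not return to the 0 h value. The change at 1 h was 3.65 in AdenoGFP cells and 3.73 ± 0.24 over both viruses (limma, adjusted p = 0.000622), and at 6 h it was 1.80 ± 0.24 over both (adjusted p = 0.0273). Fosb, its close relative, read 4.88, 6.94, 5.51, 5.13 and 4.88 and was back at its 0 h level by 9 h (2.22 ± 0.17 at 1 h, adjusted p = 0.00103). Egr1, a zinc finger factor induced by growth signals, read 11.25, 13.55, 11.34, 11.50 and 11.40. It was thus high at 1 h only (2.33 ± 0.17, adjusted p = 0.000902). Egr2 read 8.99, 11.44, 9.59, 8.84 and 8.55, and ended below its 0 h level (2.29 ± 0.16 at 1 h, adjusted p = 0.000902). Egr3 read 7.62, 11.43, 8.60, 7.87 and 7.16, with 3.33 ± 0.30 at 1 h (adjusted p = 0.00277), although its other probe set differed by only 0.84 there.

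Nr4a1, an orphan nuclear receptor, read 8.99, 12.22, 9.90, 10.03 and 9.73 and was still above 0 h at every later hour. Its change was 3.11 ± 0.19 at 1 h (limma, adjusted p = 0.000538) and 1.25 at 6 h, where it was also called. Atf3, a stress-induced factor of the ATF family, read 7.15, 9.51, 7.74, 7.05 and 7.0 (2.78 ± 0.19 at 1 h, adjusted p = 0.000884). It was the 1 h array alone that stood clear of the others. Maff, a small MAF factor, behaved otherwise: it read 8.32, 9.09, 9.26, 9.19 and 9.10, and stayed up, with 0.93 ± 0.13 at 1 h (adjusted p = 0.0336) and 0.99 ± 0.13 at 6 h (adjusted p = 0.0273). Jun itself read 11.16, 12.06, 11.03, 10.75 and 10.80, so a rise of 1.07 ± 0.16 at 1 h (adjusted p = 0.0338) was followed by values below 0 h. Junb read 7.87, 9.34, 7.82, 7.06 and 7.53 in the same pattern. Myc, the growth factor-responsive activator of biosynthesis genes, read 10.78, 11.51, 10.53, 10.16 and 10.14. Its 1 h change over both viruses was 0.92 ± 0.15 and its adjusted p was 0.0626.

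Arc, known as a neuronal immediate early gene for a capsid-forming synaptic protein, had the largest estimate among genes called at 1 h. It read 4.97, 9.06, 5.37, 5.42 and 5.39, close to the low-signal limit of 4.544 except at 1 h, and the change was 4.08 ± 0.18 (limma, adjusted p = 9.3e-05). Npas4, another activity-induced factor of neurons, read 5.63, 6.94, 5.49, 4.64 and 5.03, so the 6 h array was lowest, and the gene was called higher at 1 h (1.35, adjusted p = 0.0119) and lower at 6 h (-0.89, adjusted p = 0.0429). Btg2, an antiproliferative gene that p53 also activates, read 8.27, 11.08, 9.20, 7.62 and 8.12. The AdenoGFP difference of 2.81 at 1 h was among the 6 largest, but the mean over both viruses, 2.61 ± 0.53, had an adjusted p of 0.17. In AdenoCRE cells Btg2 read 9.88, 12.29, 11.75, 11.31 and 11.35 and stayed high after 1 h.

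**Figure D1:**
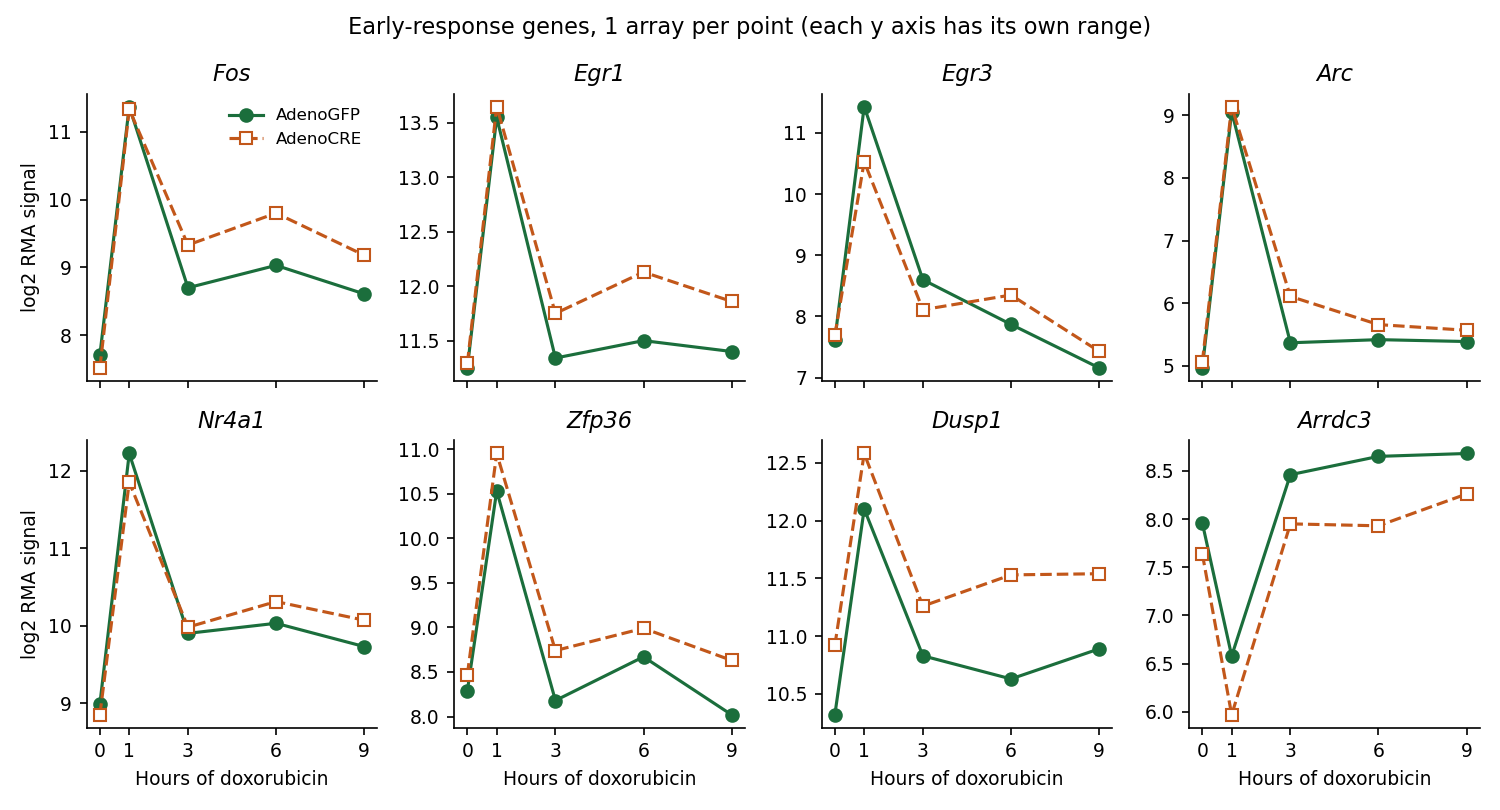
Log2 RMA signal (y axis) against hours of 500 nM doxorubicin (x axis) for 8 genes, with 1 array per point; filled circles and solid lines are AdenoGFP arrays, open squares and dashed lines AdenoCRE arrays. Fos, Egr1, Egr3, Arc, Nr4a1, Zfp36 and Dusp1 peak at 1 h with both viruses, and Arrdc3 is lowest at 1 h, at 6.58 in AdenoGFP cells.

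The promoters of these genes are shown because serum response factor (SRF) binds a motif, the CArG box, that is known from immediate early genes. In windows of 300 bases, from 250 before to 50 after the RefSeq start site, a CArG box was found on either strand in 3 of the 18 immediate early genes with a promoter entry (16.7%: Egr2, Zfp36 and Srf), against 1.63% of 10201 tested genes. Another searched motif, TGACGTCA, the cyclic AMP response element, was found in 1 of the 18 (5.56%, Maff) against 3.49%. The CArG box and this motif do not overlap. Of the motifs described further below, TTTGAA was found in 2 of the 18 (11.1%) against 14.2%. The letters of the E2F site were found in 1 (5.56%) against 4.59%. A match describes the letters and not binding. Below are the 250 bases before the start of Zfp36, whose protein destabilizes AU-rich RNAs, at chr7:28379229-28379478 on the minus strand, and of Srf, at chr17:46556163-46556412 on the minus strand, both GRCm38.p6, with CArG boxes in capitals.
Zfp36: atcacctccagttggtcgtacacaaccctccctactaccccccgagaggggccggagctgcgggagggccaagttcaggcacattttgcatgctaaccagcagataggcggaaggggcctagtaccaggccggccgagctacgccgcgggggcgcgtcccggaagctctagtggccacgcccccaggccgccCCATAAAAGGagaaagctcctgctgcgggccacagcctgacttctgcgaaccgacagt
Srf: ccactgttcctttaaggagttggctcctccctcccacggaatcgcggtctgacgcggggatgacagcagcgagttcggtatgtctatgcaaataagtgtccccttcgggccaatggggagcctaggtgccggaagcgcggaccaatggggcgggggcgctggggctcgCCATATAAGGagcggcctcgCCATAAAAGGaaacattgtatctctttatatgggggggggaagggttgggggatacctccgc
The Zfp36 box begins 58 bases before the start and the Srf boxes begin 82 and 62 bases before it. Zfp36 read 8.29, 10.53, 8.18, 8.67 and 8.02, high at 1 h alone (2.36 ± 0.14, limma, adjusted p = 0.000538). Srf read 9.61, 10.30, 9.96, 9.32 and 9.15, highest at 1 h and lowest at 9 h. Its 1 h change, 0.78 ± 0.16 over both viruses, did not pass (adjusted p = 0.174), and its other probe set differed by 0.29.

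Feedback inhibitors of MAP kinase signalling were higher at 1 h as well, by less. Of 18 members 4 were at least 2-fold higher in AdenoGFP cells (Dusp1, Phlda1, Spry2 and Spry4), against 0.395% of tested genes, and 4 rose over both viruses (Dusp1, Phlda1, Spry1 and Spry2), against 0.3%. The median change was 0.55, 0.35, -0.04 and 0.16 at 1, 3, 6 and 9 h, and quantile scaling turned the 6 h value to 0.09. Dusp1, a phosphatase of MAP kinases, read 10.32, 12.10, 10.83, 10.63 and 10.89, and all later arrays stayed a little above 0 h (1.72 ± 0.15 at 1 h, adjusted p = 0.00211). Phlda1 read 10.44, 11.84, 10.89, 10.75 and 10.94 (1.39, adjusted p = 0.00578), a similar course. Spry2, an inhibitor of receptor tyrosine kinase signalling, read 9.68, 10.69, 9.77, 9.70 and 9.86 and was high at 1 h only (1.03, adjusted p = 0.0161), but its other probe set differed by 0.20 there. Dusp6, the ERK phosphatase, read 9.33, 10.17, 9.65, 9.05 and 8.66, ending below 0 h. Errfi1, which inhibits the EGF receptor, read 11.20, 13.28, 11.67, 11.03 and 11.08 (2.01 ± 0.15 at 1 h, adjusted p = 0.00103). Edn1, which encodes the vasoconstrictor endothelin, read 6.70, 8.69, 6.79, 6.72 and 6.87 (2.14 ± 0.21, adjusted p = 0.00409), and Ch25h, cholesterol 25-hydroxylase, read 8.04, 10.50, 8.42, 8.01 and 8.15 (2.50 ± 0.29, adjusted p = 0.0115). Both were high at 1 h alone.

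Inflammatory and NF-kB genes formed the other large part of the 1 h response, and more of them stayed up. Of 23 tested members 9 were at least 2-fold higher at 1 h (0.395% of tested genes) and 6 rose over both viruses (0.3% of tested genes): Ccl7, Cxcl1, Lif, Nfkbia, Nfkbiz and Tnfaip3. Their median change was 0.79, 0.47, 0.27 and 0.44 at 1, 3, 6 and 9 h, with 4 members at least 2-fold higher at 9 h (Ccl2, Icam1, Il6 and Tnfaip3), where 0.615% of tested genes were. Cxcl1, a neutrophil chemokine, read 8.01, 10.34, 8.54, 8.83 and 8.91 and was highest at 1 h (2.80 ± 0.21, limma, adjusted p = 0.000943). Tnfaip3, which encodes the NF-kB inhibitor A20, read 7.61, 9.58, 8.61, 8.40 and 9.05, so a second high value followed at 9 h. It rose at 1 h by 1.91 ± 0.17 (adjusted p = 0.00277) and at 9 h by 1.55 ± 0.17 (adjusted p = 0.0231). Nfkbia, the IkB-alpha inhibitor of NF-kB, read 11.70, 13.00, 12.22, 12.18 and 12.35 (1.19 at 1 h, adjusted p = 0.00925). Ccl2, a monocyte chemokine, read 9.33, 10.79, 10.30, 10.12 and 10.58, above 0 h throughout. Lif, a cytokine of the interleukin-6 family, read 7.13, 9.08, 8.27, 7.41 and 7.96 (1.85 at 1 h, adjusted p = 0.0486), with 0.77 at 1 h on its other probe set. Il6 read 5.61, 5.99, 6.14, 6.31 and 6.93, higher at each array than at the one before, while in AdenoCRE cells it read 5.43, 5.99, 5.33, 5.23 and 5.57. The slopes differed by -0.148 ± 0.043 per hour (AdenoCRE minus AdenoGFP), which did not pass (limma, adjusted p = 0.311).

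In all, 50 genes were at least 2-fold higher at 1 h than at 0 h in AdenoGFP cells and 14 were lower (0.11%). In AdenoCRE cells the numbers were 77 (0.608%) and 232 (1.83%). The higher genes overlapped in 34, which is 68.0% of the AdenoGFP genes and 44.2% of the AdenoCRE genes, and 49 of the 50 were above 0 h in AdenoCRE cells. Over both viruses 38 genes rose and 6 fell (0.0473%). In every other scaling, filter, gene value, variance and leave-one-out setting tried for this fit, 13 genes remained called higher: Arc, Atf3, Cxcl1, Dusp1, Egr1, Egr2, Errfi1, Fos, Fosb, Ier2, Nr4a1, Tnfaip3 and Zfp36. Arrdc3 alone remained called lower. Leaving out the AdenoGFP 0 h array ended the calls of Egr3 (adjusted p = 0.0617), Ch25h (0.0546) and Nfkbia (0.142), and also those of Edn1, Npas4 and Phlda1. Jun, Junb, Lif and Nppb lost theirs without the AdenoGFP 0, 1, 3 or 9 h array, Maff without the 0, 3 or 9 h array, Spry1 and Aldh1a3 without the 0, 1 or 3 h array, Spry2 without the 0 or 3 h array, Fgf5 without the 0, 3 or 6 h array and Serpinb2 without the 1, 3, 6 or 9 h array.

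Arrdc3, an arrestin-like adaptor that sends membrane receptors to degradation, read 7.96, 6.58, 8.46, 8.65 and 8.68. It fell at 1 h (-1.53 ± 0.14, limma, adjusted p = 0.00277) and then stood above 0 h at 3, 6 and 9 h. Aldh1a3, a retinaldehyde dehydrogenase, read 7.73, 6.55, 7.65, 7.43 and 7.54, low at 1 h only (-1.11, adjusted p = 0.0336). Serpinb2, a plasminogen activator inhibitor, read 5.80, 4.67, 5.72, 5.74 and 5.32 (-1.64, adjusted p = 0.0485), with the 1 h value near the low-signal limit. Ahrr, the repressor of the aryl hydrocarbon receptor, read 6.98, 5.61, 6.83, 7.42 and 7.45 (adjusted p = 0.067 over both viruses), and Hoxa9 read 8.90, 7.74, 8.46, 8.89 and 8.75. Swsap1, a gene of homologous recombination, read 6.55, 5.38, 6.42, 6.83 and 6.41, but its change in AdenoCRE cells was 0.03.

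At 3 h 18 genes were at least 2-fold higher (0.142%) and 38 lower (0.3%), and 9 and 25 of them were so in AdenoCRE cells too (50% and 65.8% of the AdenoGFP genes, 8.91% and 21% of the AdenoCRE genes, of which there were 101 higher, 0.797% of tested genes, and 119 lower, 0.939%). Few were called over both viruses: 3 higher (0.0237%) and 2 lower (0.0158%). Hivep3, a zinc finger factor, read 7.92, 8.22, 9.56, 7.89 and 8.04 and was high at 3 h only (1.5 ± 0.16, limma, adjusted p = 0.0495), although its 4 other probe sets differed from this. Sema7a, a membrane-anchored semaphorin, read 7.88, 7.93, 9.17, 7.71 and 7.27 with the same peak (1.29, adjusted p = 0.0495). Gch1, the first enzyme of tetrahydrobiopterin synthesis, was the other gene called higher. All 5 calls were lost when arrays were centred on their medians or quantile scaled, with an adjusted p of 0.0521 each, and without any of the AdenoGFP 0, 3, 6 or 9 h arrays. Several genes that were higher at 1 h were as high or higher at 3 h. Nppb, the natriuretic peptide gene, read 7.24, 8.56, 8.63, 7.80 and 8.30, and Fgf5, a growth factor gene, read 5.37, 6.54, 6.62, 5.81 and 6.21, although the other Fgf5 probe set differed by -0.02 at 1 h and 0.08 at 3 h. Gem, a small GTPase, read 5.4, 6.64, 6.64, 5.99 and 6.51. Nfkbie, another IkB inhibitor, read 6.57, 7.38, 7.85, 7.26 and 7.57. In these 4 genes every array after 0 h lay above the 0 h array.

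Of the 38 genes at least 2-fold lower at 3 h, 4 were in the mitotic list, and genes of cell division were among the 6 lowest. Cenpf, a kinetochore protein that accumulates in G2 phase, read 8.57, 8.62, 6.98, 7.60 and 8.37. Kif20b, a kinesin of cell division, read 8.09, 8.05, 6.44, 7.32 and 8.0, and Kif18a, the kinesin that dampens chromosome movement, read 7.17, 7.14, 5.36, 6.58 and 6.82, although its other probe set was -0.27 from 0 h at 3 h. All were close to 0 h at 1 h, lowest at 3 h and closer to the 0 h array again at 9 h. Psrc1, a microtubule-associated protein of the spindle, read 7.35, 7.21, 5.75, 6.52 and 6.82, but was 0.51 higher at 3 h in AdenoCRE cells, and its other probe sets differed by -1.01 to 0.10. Nbeal1, a BEACH domain gene outside the mitotic list, was also among the 6 lowest and read 8.74, 8.92, 7.33, 7.49 and 7.97. Sapcd2, a regulator of spindle orientation, read 6.05, 5.54, 4.60, 4.96 and 5.33 and was among the genes called lower at 3 h (-1.31, limma, adjusted p = 0.0495). The other probe sets of Sapcd2 differed by -0.37 to -0.23 at 3 h and those of Kif20b by -1.29 to -0.03.

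The listed mitotic genes shared this dip. Of 42 members 38 (90.5%) were lowest at 3 or 6 h, against 48.9% of tested genes, and 40 were higher at 9 h than at 3 h, against 7615 of 12674. The lowest array was 3 h in 18 members and 6 h, the array that stood apart, in 20. Of the 12674 tested genes 1727 and 4476 were lowest there. The median change from 0 h was -0.10, -0.43, -0.45 and 0.09 at 1, 3, 6 and 9 h, where all tested genes had -0.03, -0.01, -0.06 and 0.06. The number of members above 0 h was 9, 2, 5 and 23. In AdenoCRE cells the median went to -0.25, -0.57, -0.64 and -0.37, with 14, 1, 4 and 3 members above 0 h. The difference of slopes between the viruses was called for 0 of the 42 by limma, and 3 had a lower AdenoCRE slope at an unadjusted p below 0.05, where 3.62% of tested genes did. Over 9 h the AdenoGFP median slope was -0.001 per hour, a sign that turned when arrays were centred (0.002) or the 6 h array was left out (0.014).

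At 3 h 4 mitotic genes were at least 2-fold lower, against 0.3% of tested genes: Ccnf (-1.09), Cenpe (-1.35), Cenpf (-1.59) and Kif20b (-1.65). At 6 h 3 were, Cdc25c (-1.43), Kif11 (-1.27) and Plk1 (-1.13), where 2.12% of tested genes were at least 2-fold lower. The fit over both viruses called 5 mitotic genes lower at 6 h, against 1.58% of tested genes. Plk1, the polo kinase that drives mitotic entry, read 10.74, 10.37, 9.81, 9.61 and 10.09 (-1.11, limma, adjusted p = 0.0295). Ccnb2, a B-type cyclin, read 10.60, 10.67, 10.44, 9.66 and 10.07 (-1.0, adjusted p = 0.0346), and Cenpa, the centromeric histone H3 variant, read 11.07, 11.04, 10.93, 10.31 and 10.69 (-0.70, adjusted p = 0.0487). The other Cenpa probe sets had late minus early differences of -0.66 to 0.50. In these 3 genes the 6 h array was lowest and the 9 h array stayed below 0 h. The other called members were Cdc25c (-1.25) and Nusap1 (-0.94), each with an adjusted p of 0.0487. All 5 calls were lost without the AdenoGFP 6 h array (adjusted p of 0.123 to 0.182), as without the AdenoGFP 0 h or 3 h array.

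Of further genes of the list, Top2a and Aurkb ended above 0 h, Kif11 and Cenpe close to it, and Ccnf below it. Top2a, the topoisomerase II that doxorubicin traps, read 11.30, 11.12, 11.25, 11.40 and 12.21, with the 9 h array clear of the others, although its other probe sets had late minus early differences of 0.07 and 0.13 against 0.60. Aurkb, the kinase of the chromosomal passenger complex, read 9.42, 9.11, 9.07, 9.44 and 9.98. Kif11, the spindle kinesin Eg5, read 8.89, 8.74, 8.01, 7.62 and 8.92 and returned to its 0 h level at 9 h. Cenpe, a kinetochore kinesin, read 8.89, 9.03, 7.54, 8.18 and 8.82 in the same way, and Ccnf, the cyclin F of an SCF ubiquitin ligase, read 8.29, 7.64, 7.20, 7.73 and 7.90.

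The letters TTTGAA, the core of the cell cycle homology region (CHR) of G2 and M genes, were found on either strand in 26 of the 36 mitotic genes with a promoter entry (72.2%), against 14.2% of tested genes. Ccnf (chr17:24251410-24251659, minus strand) and Kif11 (chr19:37376132-37376381, plus strand) are shown as members that dipped and carry it close to the start. The 250 bases before the RefSeq start (GRCm38.p6) are printed with the motif, or its reverse complement in Kif11, in capitals.
Ccnf: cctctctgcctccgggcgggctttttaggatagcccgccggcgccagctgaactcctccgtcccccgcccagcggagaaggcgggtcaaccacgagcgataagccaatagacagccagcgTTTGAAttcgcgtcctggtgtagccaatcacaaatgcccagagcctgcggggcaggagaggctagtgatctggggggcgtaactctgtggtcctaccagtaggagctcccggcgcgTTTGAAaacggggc
Kif11: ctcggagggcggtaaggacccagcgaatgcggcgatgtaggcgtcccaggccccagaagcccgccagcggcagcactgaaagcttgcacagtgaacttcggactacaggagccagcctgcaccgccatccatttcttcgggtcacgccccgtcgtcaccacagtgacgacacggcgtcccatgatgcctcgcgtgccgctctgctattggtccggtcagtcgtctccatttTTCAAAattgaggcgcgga
The Ccnf motifs begin 130 and 14 bases before the start and the Kif11 motif 19 bases before it.

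DNA replication genes took another course: low at 1 and 3 h, level by 6 h and high at 9 h. The median change of the 50 tested members was -0.27, -0.19, 0.13 and 0.48 at 1, 3, 6 and 9 h, with 4, 11, 36 and 48 members above 0 h. In all tested genes 44.4%, 48.6%, 43.0% and 58.9% were above 0 h at those hours. For 35 members (70.0%) the 1 h array was the lowest, against 25.5% of tested genes, for 46 (92.0%) the 9 h array was the highest, against 34.6%, and all 50 were higher at 9 h than at 3 h. Both late arrays lay above both early arrays in 36 members, against 26.0% of tested genes, and without the 6 h array the 9 h array lay above both early arrays in 48, against 49.5%. The median slope was 0.069 per hour, 0.070 without the 6 h array and 0.037 without the 9 h array. No member's slope passed the adjusted threshold, while 28 of 50 had an upward slope at an unadjusted p below 0.05, where 7.62% of tested genes did. In bulk RNA a larger share of cells in S phase and more RNA per cell cannot be told apart.

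Mcm10, which helps activate the replicative helicase, read 8.97, 8.65, 9.20, 9.66 and 9.93, lowest at 1 h and highest at 9 h (slope 0.132 ± 0.024 per hour, limma, adjusted p = 0.404). In AdenoCRE cells it read 8.81, 8.72, 8.98, 9.31 and 8.98. Orc6, a subunit of the origin recognition complex, read 9.92, 9.69, 10.09, 10.59 and 10.79 (0.119 ± 0.022 per hour). Fen1, the nuclease that trims Okazaki fragments, read 11.35, 10.96, 11.46, 12.06 and 12.20 (0.128 ± 0.028 per hour), and Prim2, a subunit of primase, read 9.57, 9.58, 9.69, 10.11 and 10.21 (0.08 ± 0.018 per hour). In all 4 genes both late arrays were above the 0, 1 and 3 h arrays, but the other Prim2 probe sets had late minus early differences of -0.25 and 0.27. Cdc6, which loads the MCM helicase at origins, read 10.07, 9.39, 10.41, 11.13 and 10.96, and its late minus early difference, 1.32 ± 0.25, was among the 10 highest of all genes whose groups did not overlap.

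The MCM helicase and the sliding clamp were also lowest at 1 h. Mcm5 read 11.39, 10.93, 11.18, 11.85 and 11.89, Mcm2 read 10.77, 10.25, 10.41, 10.72 and 10.94, and Pcna read 13.47, 13.14, 13.40, 13.52 and 13.72. Each was highest at 9 h. The other Mcm5 probe sets had late minus early differences of 0.15 and 0.65. Rfc3, a subunit of the clamp loader, read 10.09, 9.66, 10.01, 10.70 and 10.83. Gins3, a subunit of the GINS complex of the helicase, read 6.95, 6.64, 7.16, 7.09 and 8.01 and was the member at least 2-fold higher at 9 h. The exceptions at 9 h were Dbf4 and Orc4, which lay below 0 h by -0.27 and -0.19. Dbf4, the activator of the CDC7 kinase, read 10.58, 10.46, 10.28, 9.77 and 10.31 and was called lower at 6 h over both viruses (-0.80, limma, adjusted p = 0.04), while its other probe set had a late minus early difference of -0.07.

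Replication genes are targets of E2F factors, so promoters were searched on both strands for TTTCCCGC, TTTCGCGC, TTTGCCGC and TTTGGCGC, letters of the E2F site. At least 1 of them was found in 17 of the 41 members with a promoter entry (41.5%), against 4.59% of tested genes. Rfc3 (chr5:151651209-151651458, minus strand) and Gins3 (chr8:95633309-95633558, plus strand) are shown with the motif in capitals, which in Gins3 is a reverse complement; the 250 bases before the RefSeq start (GRCm38.p6) are printed.
Rfc3: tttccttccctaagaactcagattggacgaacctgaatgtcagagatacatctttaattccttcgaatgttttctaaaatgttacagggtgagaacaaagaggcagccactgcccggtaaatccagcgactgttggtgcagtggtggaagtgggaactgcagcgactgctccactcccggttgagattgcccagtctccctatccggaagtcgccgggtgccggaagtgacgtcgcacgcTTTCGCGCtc
Gins3: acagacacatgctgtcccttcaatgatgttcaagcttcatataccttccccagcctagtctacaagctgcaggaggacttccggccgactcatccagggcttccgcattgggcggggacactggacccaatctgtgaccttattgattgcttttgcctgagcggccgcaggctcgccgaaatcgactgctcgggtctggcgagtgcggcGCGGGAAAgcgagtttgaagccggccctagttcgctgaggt
The Rfc3 motif begins 10 bases and the Gins3 motif 41 bases before the start.

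With p53 restored the list had lower late values: in AdenoCRE cells the median change was -0.16, -0.18, 0.01 and -0.06, with 9, 12, 27 and 21 of 50 members above 0 h. Both late arrays lay above both early arrays in 18 members there, against 26.3% of tested genes. The difference of slopes passed the adjusted threshold for 0 members by limma. At an unadjusted p below 0.05 the AdenoCRE slope was lower in 18 members, where 3.62% of tested genes were, and these included Cdc45, Cdt1, Chaf1b, Fen1, Mcm5, Mcm10, Orc6, Pold1, Rpa2 and Timeless.

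**Figure D2:**
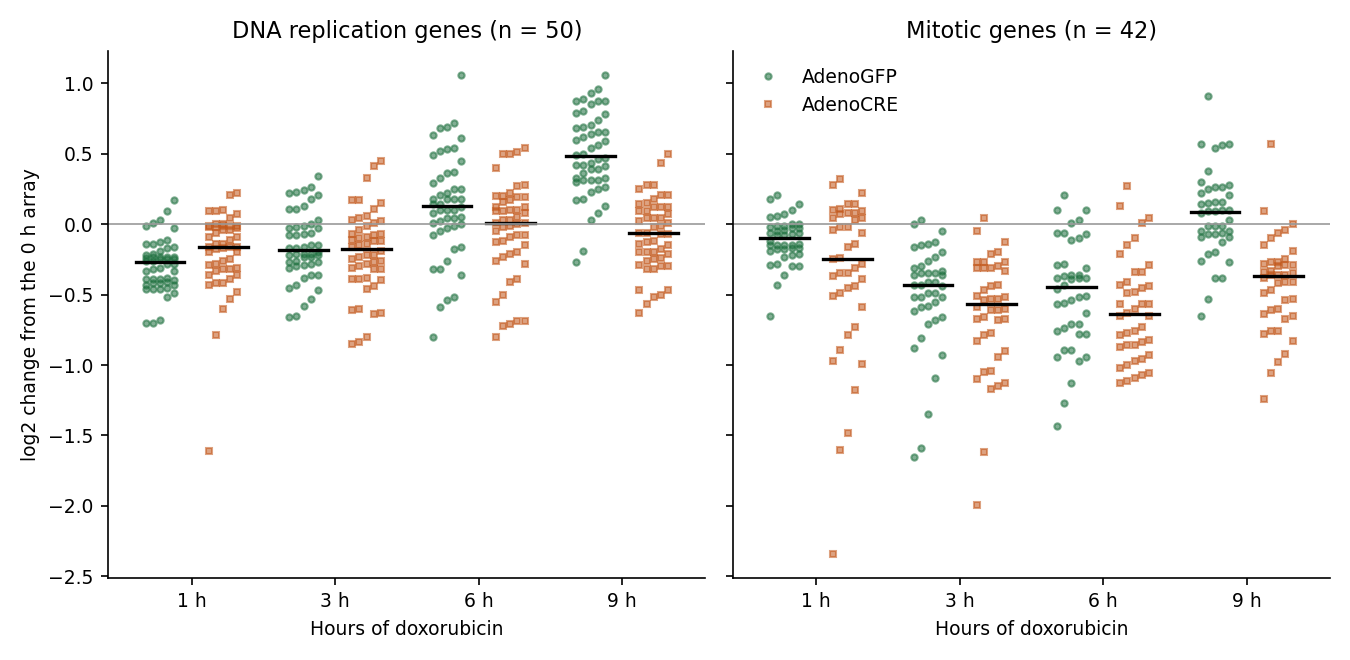
Log2 change from the 0 h array of the same virus (y axis) at 1, 3, 6 and 9 h for every tested DNA replication gene (50 genes) and mitotic gene (42 genes); green points are AdenoGFP and orange points AdenoCRE, and black bars are medians. In AdenoGFP cells the replication median goes from -0.27 at 1 h to 0.48 at 9 h, and the mitotic median is -0.43 at 3 h, -0.45 at 6 h and 0.09 at 9 h.

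The cyclins, E2F factors and retinoblastoma family of the G1 to S step followed with smaller values. Their 25 members had a median change of -0.17, 0.00, 0.06 and 0.22, and 5 had an upward slope at an unadjusted p below 0.05, against 7.62% of tested genes. E2f7, a repressor E2F made in S phase, read 9.39, 9.02, 9.60, 10.10 and 10.37 (0.137 ± 0.026 per hour), Ccne1, the cyclin of S phase entry, read 9.69, 9.47, 9.99, 10.33 and 10.27, and E2f1 read 8.07, 7.70, 7.89, 8.43 and 8.60. The late arrays of all 3 were above their early arrays. Among 19 nucleotide supply genes the median change was -0.27, -0.05, 0.03 and 0.22, with 5 upward slopes at an unadjusted p below 0.05, against the same 7.62%. Rrm2, the S phase subunit of ribonucleotide reductase, read 12.72, 12.38, 12.81, 13.24 and 13.20. Umps, of pyrimidine synthesis, read 10.59, 9.95, 10.52, 10.91 and 11.03. Rrm2b, the reductase subunit that p53 can induce, read 6.42, 6.91, 6.63, 7.24 and 7.20, above 0 h throughout, but its other probe sets had late minus early differences of -0.03 to 0.25, and those of Umps 0.04 to 0.91.

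Homologous recombination and Fanconi genes were also highest at 9 h. Their 25 tested members had a median change of -0.25, -0.17, -0.08 and 0.52, against -0.34, -0.23, -0.20 and -0.04 in AdenoCRE cells. The 6 h value turned to 0.17 with quantile scaling. For 18 of 25 the 9 h array was the highest, against 34.6% of tested genes, and 10 had an upward slope at an unadjusted p below 0.05, against 7.62%. The median slope was 0.060 per hour and rested on the 9 h array: it was 0.076 without the 6 h array and -0.008 without the 9 h array. Exo1, the nuclease that resects broken ends, read 8.83, 8.19, 8.82, 9.76 and 9.70. Both of its late arrays stood above the rest. Rad54b, a motor protein of strand exchange, read 5.81, 5.85, 5.55, 6.07 and 7.19, and Fancm, the Fanconi translocase, read 6.63, 6.50, 6.46, 6.85 and 7.55, high mainly at 9 h. Brca2, a breast cancer susceptibility gene of the same pathway, read 7.25, 6.85, 6.08, 6.08 and 7.52, so it was more than 2-fold lower at 3 and 6 h and back above 0 h at 9 h. Rad50, of the break-sensing MRN complex, read 7.94, 7.84, 7.81, 8.49 and 8.53, with a late minus early difference of 0.15 on its other probe set.

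The 19 checkpoint genes did not move together, with a median change of -0.21, -0.24, -0.23 and 0.02, the last of which became -0.01 with quantile scaling. Clspn, the adaptor that ATR uses to activate CHK1, read 9.31, 8.70, 9.12, 10.20 and 10.10, and Rnf168, a ubiquitin ligase at breaks, read 8.90, 8.72, 9.00, 9.19 and 9.42. Their late arrays were above their early arrays. H2ax, the histone variant phosphorylated at breaks, read 11.12, 10.85, 10.69, 10.16 and 10.41, and lay below 0 h throughout (-0.086 ± 0.027 per hour). Among 27 chromatin regulators, whose median slope was 0.008 per hour and -0.003 without the 9 h array, Dnmt1, the maintenance DNA methyltransferase, read 10.33, 10.00, 10.05, 10.67 and 11.06, again lowest at 1 h and highest at 9 h.

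The genes with the largest late minus early differences, among those whose late arrays lay both above or both below the early ones, came from many pathways. Gch1 read 6.11, 6.13, 7.28, 7.98 and 7.88, with no overlap between the late and early arrays. Its difference was 1.81 ± 0.14 and had the smallest adjusted p of that comparison (limma, adjusted p = 0.275). Its other probe set had a difference of 0.46. Over both viruses it was called at 3 h (1.46, adjusted p = 0.0495), 6 h (1.89, adjusted p = 0.013) and 9 h (1.79 ± 0.17, adjusted p = 0.02). Slc16a6, a monocarboxylate transporter, read 6.22, 5.65, 7.03, 7.61 and 7.98, the highest difference of all (1.86 ± 0.24, adjusted p = 0.33), and was called at 6 h (1.28, adjusted p = 0.0342). Pdk4, the kinase that shuts off pyruvate dehydrogenase, read 6.74, 6.72, 7.15, 8.15 and 8.54. Its level was flat to 1 h and then higher at each array (1.96 ± 0.19 at 9 h over both viruses, adjusted p = 0.02).

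Nanos1, an RNA-binding translational repressor of germ cells, read 5.56, 5.69, 6.29, 6.72 and 7.19 (1.61 ± 0.18 at 9 h over both viruses, limma, adjusted p = 0.0231), and Tcaf2, a regulator of a cation channel, read 7.40, 7.5, 7.88, 8.36 and 8.87 (1.46 ± 0.12, adjusted p = 0.0152). Both were higher at each array after 0 h. Tcaf2 had a slope of 0.165 ± 0.017 per hour (adjusted p = 0.197) and was called when the AdenoCRE arrays were added to the fit. Crem, a cyclic AMP-responsive factor, read 5.78, 5.64, 6.20, 6.50 and 6.84 (1.04 ± 0.12 at 9 h, adjusted p = 0.0281), while its 3 other probe sets had late minus early differences of 0.20 to 0.30. Nog, the secreted inhibitor of bone morphogenetic proteins (BMPs), read 5.0, 4.97, 6.13, 6.27 and 6.55 (1.15 at 6 h, adjusted p = 0.0478). Id2, a BMP-responsive inhibitor of basic helix-loop-helix factors, read 10.01, 9.80, 11.12, 11.34 and 10.97, although its 2 other probe sets had late differences of -0.11 and 0.66. Both genes were higher from 3 h on. Cxcr6, a chemokine receptor, read 5.48, 4.64, 5.69, 5.68 and 6.99, high at 9 h (1.44 ± 0.16, adjusted p = 0.0231), and Cep295nl read 5.46, 5.23, 5.92, 6.93 and 6.75.

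Among genes that were lower late, Mipol1 read 6.44, 6.67, 5.70, 4.26 and 4.97. The late minus early difference was -1.94 ± 0.26, and over both viruses the gene was called at 6 h (-2.17, limma, adjusted p = 0.013) and 9 h (-1.74 ± 0.21, adjusted p = 0.0281). Its 6 h value was below the low-signal limit, and its other probe sets had differences of -1.02 to 0.13. Nrf1, a regulator of mitochondrial genes, read 8.11, 7.76, 7.28, 5.88 and 6.53, and was called at 6 h (-2.09, adjusted p = 0.00791) and 9 h (-1.56 ± 0.16, adjusted p = 0.02). Its other probe sets ran the same way, by -1.39 to -0.37. Cemip, which breaks down hyaluronan, read 10.10, 10.72, 9.85, 9.15 and 8.73 and was lowest at 9 h (-1.47 ± 0.16, adjusted p = 0.0231), with late minus early differences of -0.95 and -0.15 on its other probe sets. Rbms3, an RNA-binding protein, read 10.61, 10.92, 10.56, 9.26 and 9.50 (-1.29 ± 0.17 at 9 h, adjusted p = 0.042), with both late arrays over 1 unit below the early ones. Adamts6, a secreted protease, read 8.12, 8.31, 7.42, 6.16 and 7.29, Ank2, the membrane adaptor ankyrin-B, read 7.61, 7.78, 7.43, 5.70 and 6.80, and Zfc3h1, of the nuclear exosome, read 8.32, 8.57, 7.61, 6.62 and 7.45. These 3 were lowest at 6 h, and the other Ank2 probe sets had differences of -0.94 to 0.01. Mid1, a microtubule-bound ubiquitin ligase, read 7.42, 7.79, 6.60, 5.98 and 6.27, but its other probe sets differed by only -0.10 to 0.02.

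At 9 h the fit over both viruses called 10 genes higher (0.0789%) and 4 lower (0.0316%). Without the AdenoGFP 6 h array Gch1, Pdk4, Nrf1, Tcaf2, Nanos1, Cemip and Tnfaip3 were still called (limma, adjusted p = 0.0146 each), as were Cxcr6 (0.0234), Mipol1 (0.0236), Mfsd6 (0.0341) and Crem (0.0404). Without the AdenoGFP 0 h array none of the 14 was (adjusted p of 0.12 to 0.163), nor was any without the AdenoGFP 9 h array (0.0583 to 0.0955), and without the AdenoGFP 3 h array Gch1, Nrf1, Pdk4 and Tcaf2 were (0.0313 each). At 6 h it called 54 higher (0.426%) and 200 lower. With at least 2-fold as the limit, 70 genes (0.552%) were higher and 269 lower at 6 h in AdenoGFP cells, and 78 were higher and 16 (0.126%) lower at 9 h. Quantile scaling changed the 6 h counts to 146 and 145 and moved the median change of all tested genes at 6 h from -0.06 to 0.05. Of the 70 higher genes 9 were so in AdenoCRE cells (12.9% of the AdenoGFP genes and 2.76% of the AdenoCRE genes), and of the 78 at 9 h 23 were (29.5% and 5.52%). In AdenoCRE cells 326 genes (2.57%) were at least 2-fold higher and 154 (1.22%) lower at 6 h, and 417 (3.29%) higher and 96 (0.757%) lower at 9 h.

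**Figure D3:**
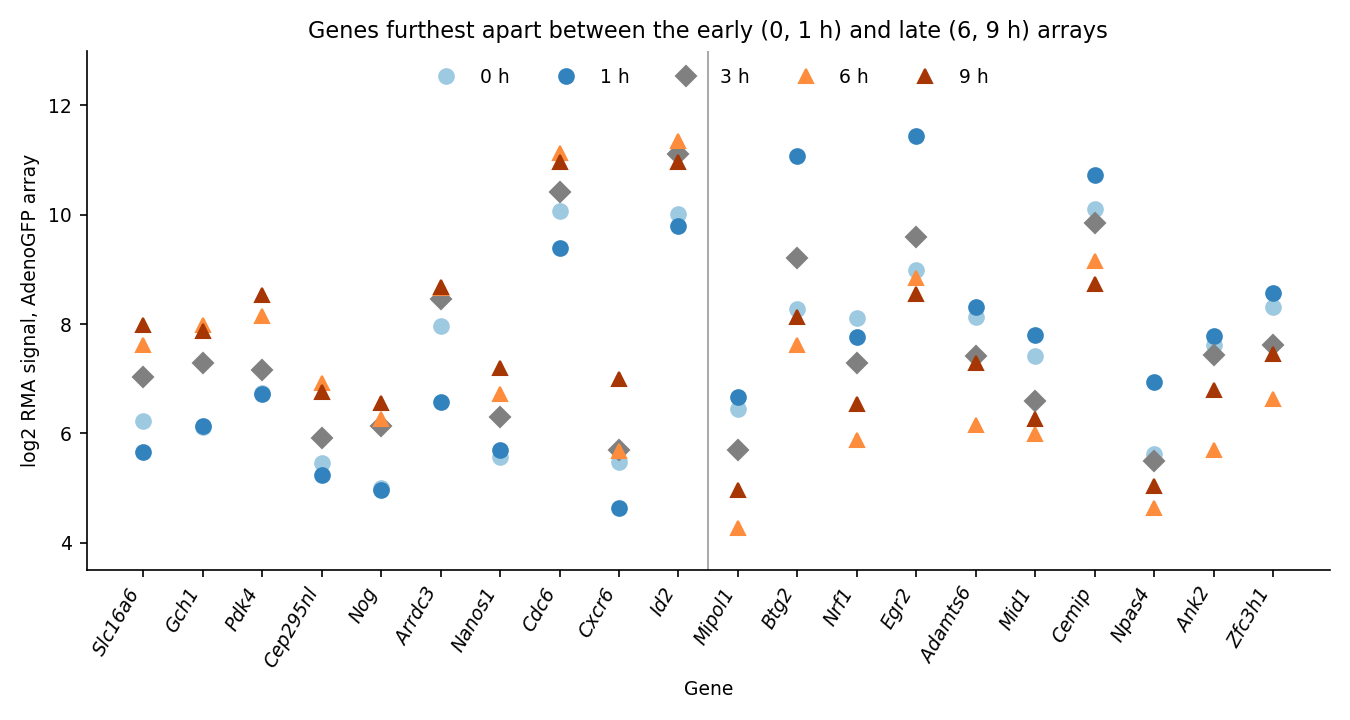
Log2 RMA signal in the 5 AdenoGFP arrays (0, 1, 3, 6 and 9 h of doxorubicin) for the 10 genes with the highest and the 10 with the lowest late minus early difference among genes whose late arrays both lay above or both below the early arrays. Slc16a6 goes from 6.22 to 7.98 and Mipol1 is lowest at 6 h, at 4.26; 1 array per time, no error bars.

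Genes of the unfolded protein and amino acid stress responses were lower late. In 22 of 30 members both late arrays lay below both early arrays, against 21.1% of tested genes. The median change was 0.09, -0.02, -0.29 and -0.25, and the median slope -0.047 per hour, or -0.034 without the 6 h array. No slope was called, and 9 of 30 were downward at an unadjusted p below 0.05, where 3.49% of tested genes were. Herpud1, of endoplasmic reticulum-associated degradation, read 10.65, 10.63, 10.25, 9.83 and 9.81 (-0.106 ± 0.021 per hour). Xbp1, the factor spliced by IRE1, read 12.35, 12.50, 12.32, 11.94 and 11.60 (-0.095 ± 0.02 per hour). Both were lower at each array from 3 h on. Sesn2, a stress sensor that p53 also induces, read 9.17, 9.54, 9.10, 8.63 and 8.60, while it was 1.22 higher at 3 h in AdenoCRE cells. Vegfa, the angiogenic factor in this list, read 9.49, 9.77, 9.68, 8.64 and 8.75, low in both late arrays. The list was lower late in AdenoCRE cells too, with a median change of 0.22, 0.09, -0.16 and -0.31 and a median slope of -0.044 per hour. Both late arrays lay below both early ones in 20 of 30 members there, against 26.0% of tested genes.

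RNA-binding proteins of the hnRNP and splicing list were lower late too. Of 29 members 18 had both late arrays below both early ones, against 21.1% of tested genes, and 8 had a downward slope at an unadjusted p below 0.05, against 3.49%, with 0 called by limma. The median change was -0.06, -0.09, -0.28 and -0.26. Without the 6 h array the 9 h array lay below both early arrays in 21 members, against 28.7% of tested genes. The median slope was -0.037 per hour, or -0.031 without the 6 h array. Hnrnpa2b1 read 12.94, 12.87, 12.73, 12.46 and 12.52, Hnrnpr read 11.39, 11.57, 11.56, 11.13 and 10.90, and Rbm39, a splicing coactivator, read 9.90, 10.21, 9.28, 9.19 and 9.15. In each the late arrays lay below the early ones. Tra2a, a splicing activator, read 10.46, 10.62, 10.42, 9.83 and 9.84, though its other probe sets had late differences of -1.22 to 0.10. Srsf5, a serine and arginine-rich splicing factor, read 12.20, 12.36, 11.62, 10.87 and 11.73, lowest at 6 h (-1.12 over both viruses, limma, adjusted p = 0.0346). In AdenoCRE cells the list had a median change of -0.24, -0.26, -0.37 and -0.27 and a median slope of -0.033 per hour. Both late arrays lay below both early ones in 16 of 29 members there, against 26.0% of tested genes.

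Targets of SRF and YAP, many of them contractile, were below 0 h at 9 h in all but 1 of 23 tested members, while 58.9% of tested genes were above 0 h. The median change was 0.03, -0.01, -0.15 and -0.25, and in 19 both late arrays lay below both early ones, against 21.1% of tested genes. Without the 6 h array the 9 h array lay below both early arrays in 22, against 28.7%. The median slope was -0.029 per hour, or -0.026 without the 6 h array. In AdenoCRE cells the median change was 0.07, 0.00, -0.04 and -0.16 and the median slope -0.019 per hour. Both late arrays lay below both early ones in 14 of 23 members there, against 26.0% of tested genes. Ankrd1, a YAP target, read 10.59, 11.77, 9.88, 9.66 and 10.05, so a high 1 h value was followed by values below 0 h (-1.30 at 6 h over both viruses, limma, adjusted p = 0.0306). Ccn1, a matricellular immediate early gene, read 12.99, 13.85, 12.66, 12.19 and 12.44 with the same course. Thbs1, thrombospondin, read 13.74, 13.77, 13.67, 13.21 and 13.22, lower in the late arrays only, and Lmod1, a smooth muscle actin nucleator, read 6.88, 7.41, 6.48, 6.14 and 6.34 (-0.70 at 6 h, adjusted p = 0.0478).

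Interferon-stimulated genes were slightly higher throughout. The 28 tested members had a median change of 0.14, 0.12, 0.18 and 0.41, against 0.26, 0.42, 0.26 and 0.41 in AdenoCRE cells. In 16 both late arrays lay above both early ones, against 26.0% of tested genes. Without the 6 h array the 9 h array lay above both early arrays in 22, against 49.5%. An upward slope at an unadjusted p below 0.05 was found in 8, against 7.62%, with 0 called by limma. The median slope was 0.033 per hour, or 0.035 without the 6 h array. Irf7, the master factor of the type I interferon response, read 4.98, 5.19, 5.28, 5.47 and 6.09 (0.111 ± 0.021 per hour), not far above the low-signal limit. Usp18, which removes the ubiquitin-like ISG15, read 7.31, 7.28, 7.49, 8.0 and 8.04, Parp14 read 5.35, 5.61, 5.67, 5.90 and 6.20, and Irf1 read 8.67, 8.65, 8.75, 9.34 and 9.41. The late arrays were the highest for all 4 genes.

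Genes of RNA polymerase II and its elongation factors had a median change of 0.04, 0.02, 0.04 and 0.30 over 23 tested members. At 9 h 19 members (82.6%) were above 0 h, against 58.9% of tested genes. At an unadjusted p below 0.05 the slope was upward in 7, against 7.62%, and downward in 1, against 3.49%, with 0 called by limma. Both late arrays lay above both early ones in 10, against 26.0%, and below them in 4, against 21.1%. Polr2a, the largest subunit of the polymerase, read 8.85, 9.15, 9.39, 9.84 and 10.08, higher at each array (0.133 ± 0.019 per hour), and was called at 6 h over both viruses (0.97, limma, adjusted p = 0.0342). Its other probe set had a late minus early difference of 0.61. Hexim1, which holds the elongation kinase P-TEFb inactive, read 9.19, 9.47, 9.89, 10.11 and 9.86 (0.82 at 6 h, adjusted p = 0.0323; late minus early -0.03 on its other probe set), and Larp7, another part of that inhibitory complex, read 10.45, 10.48, 10.56, 10.87 and 11.06. Ccnk, the cyclin of CDK12, read 6.76, 7.12, 6.87, 7.36 and 7.67. Ccnt2, a cyclin of P-TEFb, went the other way, with 8.06, 8.32, 7.38, 7.06 and 7.04.

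Without p53 the listed p53 targets had median changes near 0. The median change of 38 members was 0.06, 0.00, -0.10 and 0.14 in AdenoGFP cells, with 0 slopes called, and 0.18, 0.83, 1.17 and 1.14 in AdenoCRE cells, where the slope of 18 members was called upward by limma and of 0 downward, against 3.95% and 1.45% of tested genes. The -0.10 at 6 h became 0.05 with quantile scaling. Mdm2, the ubiquitin ligase that p53 induces and that degrades it, read 9.25, 9.45, 9.11, 8.87 and 9.03, and 10.53, 10.43, 11.70, 11.71 and 12.09 in AdenoCRE cells. Its slopes differed by 0.227 ± 0.05 per hour (adjusted p = 0.147). Cdkn1a was 0.86 higher at 9 h than at 0 h in AdenoGFP cells. Pmaip1, the BH3-only protein Noxa, read 7.67, 8.73, 8.72, 7.61 and 7.94, so it was higher at 1 and 3 h without p53. Perp, a desmosomal and apoptotic target, read 5.09, 5.23, 4.79, 5.07 and 5.50.

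The difference of slopes, AdenoCRE minus AdenoGFP, was called for 23 genes, all with a higher AdenoCRE slope (0.181%), 2 of them listed p53 targets, Perp and Tnfrsf18. The low-signal filter used the mean over all 30 arrays, and 9 of the 23 genes, Tnfrsf18 and Acaa1b among them, lay below its limit on every AdenoGFP array, so they passed only through arrays on which they are high. With the filter set on the AdenoGFP arrays 14 of the 23 were tested and 8 called: Aldh4a1, Arhgef4, Bnc1, Celf5, H3c11, Notch3, Ppp1r14a and Slc4a11. With the filter over all 30 arrays, the AdenoCRE slope was higher at an unadjusted p below 0.05 for 24 of the 38 targets, against 4.78% of tested genes. That count was not repeated with the filter on the AdenoGFP arrays. It includes targets, such as Tnfrsf18, that passed only through arrays on which they are high, so no conclusion is drawn from it. The AdenoGFP slopes of the 23 genes ran from -0.063 to 0.053 per hour with a median of -0.005. Tnfrsf18, the receptor GITR, read 4.39, 4.17, 4.24, 4.28 and 3.97 in AdenoGFP cells, all below the low-signal limit, and 4.12, 4.08, 4.94, 6.92 and 7.90 in AdenoCRE cells (0.493 ± 0.042 per hour, limma, adjusted p = 0.00587). Perp had a difference of 0.249 ± 0.037 per hour (adjusted p = 0.0383, or 0.0649 with the filter on the AdenoGFP arrays). No gene was called with a higher slope in AdenoGFP cells, while 459 (3.62%) had one at an unadjusted p below 0.05. Fam161a, a ciliary gene, came closest (-0.133, limma, adjusted p = 0.116). Its AdenoGFP late minus early difference was 0.94, but only 0.04 on its other probe set. The 23 calls rested on several arrays: without the AdenoGFP 0 h array or without the AdenoGFP 9 h array 0 genes were called, and without the 1 h or 3 h array 1 and 8 were.

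**Figure D4:**
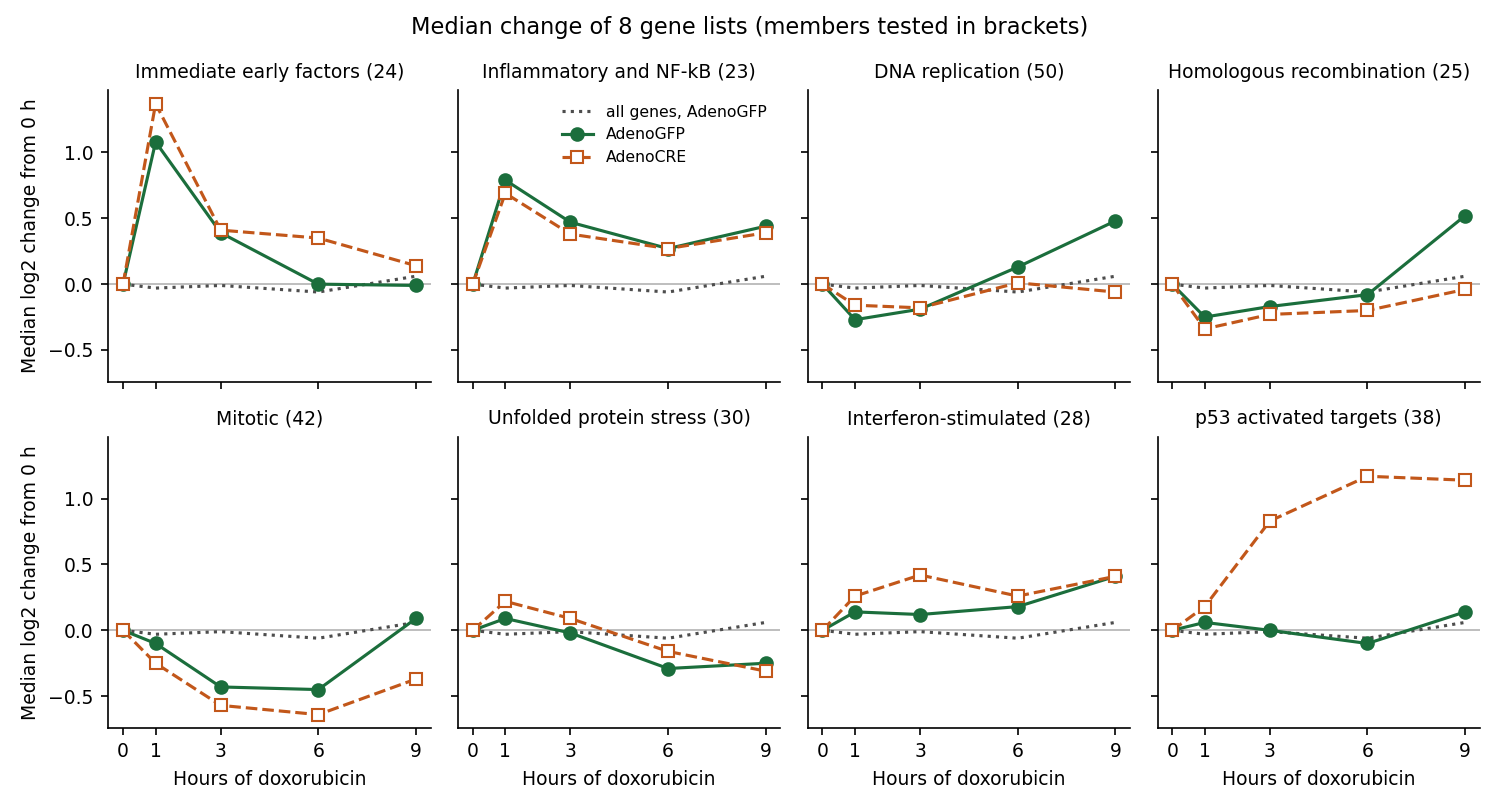
Median log2 change from 0 h (y axis) against hours of doxorubicin (x axis) for 8 gene lists; solid lines are AdenoGFP, dashed lines AdenoCRE, and the dotted line is the median of all tested genes in AdenoGFP. Immediate early genes are at 1.08 after 1 h, DNA replication genes at 0.48 after 9 h, and p53 targets at 0.14 after 9 h in AdenoGFP against 1.14 in AdenoCRE. The p53 targets include Tnfrsf18, which passed the low-signal filter only through arrays on which it is high.

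Several of the late lower genes named above are long and others short. Rbms3 spans 1060 kb in the RefSeq annotation, Ank2 579 kb, Mid1 306 kb, Mipol1 227 kb, Adamts6 210 kb, Cemip 154 kb and Nrf1 105 kb, while Zfc3h1 spans 48.0 kb, Npas4 19.1 kb, Egr2 7.72 kb and Btg2 4.29 kb. Of 12618 tested genes with a span 1662 (13.2%) exceed 100 kb. Among genes at least 2-fold lower at 6 h, 77 of 266 (28.9%) did in AdenoGFP cells and 54 of 152 (35.5%) in AdenoCRE cells. At 9 h 6 of 16 (37.5%) did in AdenoGFP cells and 41 of 92 (44.6%) in AdenoCRE cells. At 1 h 0 of 14 did in AdenoGFP cells and 37 of 228 (16.2%) in AdenoCRE cells. With genes divided into 5 equal groups by span, the median AdenoGFP change at 6 h was 0.008, -0.001, -0.044, -0.092 and -0.178 from the shortest to the longest group. At 1 h the order ran the other way, from -0.066 in the shortest to 0.042 in the longest group, but in AdenoCRE cells it went from 0.154 to 0.01. Span was not used in choosing any gene, and the AdenoGFP 6 h values rest on the array that stood apart. The AdenoCRE medians at 6 h, which do not use that array, went from 0.103 in the shortest group to -0.1 in the longest. The 9 h medians ran from 0.08 in the shortest group to 0.00 in the longest in AdenoGFP cells. In AdenoCRE cells they ran from 0.071 to -0.089.

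**Figure D5:**
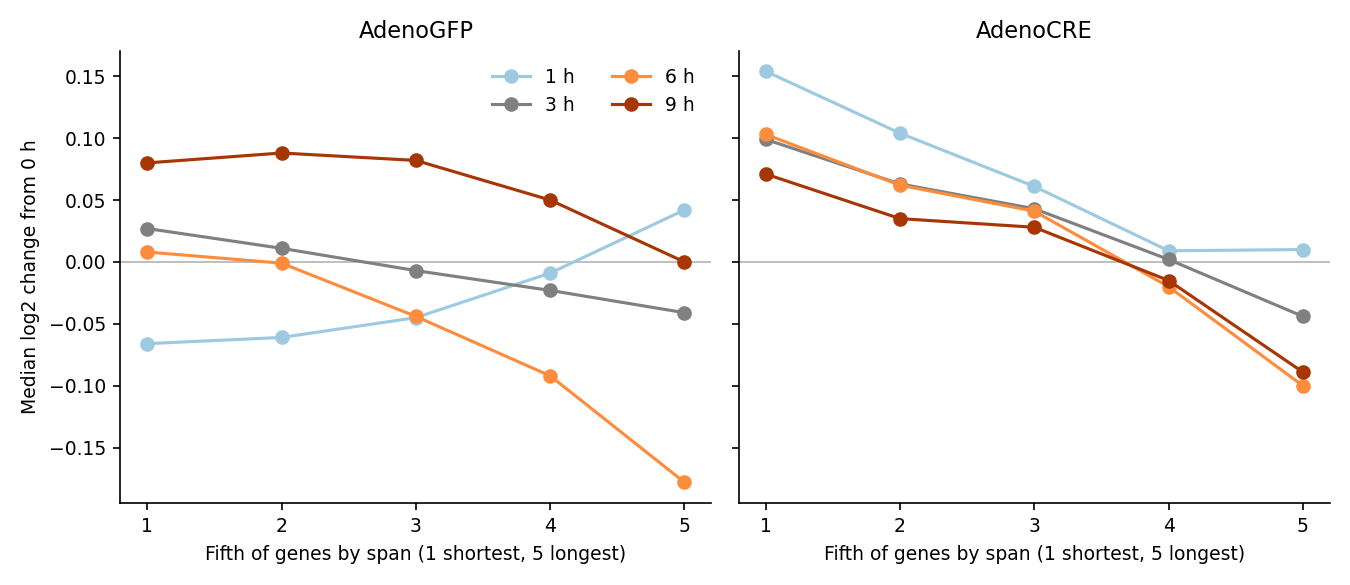
Median log2 change from 0 h (y axis) for tested genes in 5 equal groups by gene span, shortest to longest (x axis), at 1, 3, 6 and 9 h, with AdenoGFP and AdenoCRE in separate panels. In AdenoGFP cells the 6 h line goes from 0.008 to -0.178 with span and the 1 h line goes from -0.066 to 0.042.

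The 14 tested circadian clock genes had a median change of 0.29, 0.04, -0.37 and -0.07, and 12 of them were lowest at 3 or 6 h, against 48.9% of tested genes. Of these, 10 were lowest on the 6 h array, which stood apart. Bhlhe40, a repressor in the clock, read 10.45, 11.13, 10.42, 9.95 and 10.40, and Nr1d2, a nuclear receptor of the clock, read 9.58, 10.09, 9.59, 8.69 and 9.46. Both were highest at 1 h and lowest at 6 h in AdenoGFP cells, while in AdenoCRE cells Nr1d2 lay below 0 h at 1 h by -0.49. The 24 genes of ribosome biogenesis and RNA polymerase I had a median change of -0.26, -0.06, -0.14 and -0.08, with 2 members above 0 h at 1 h, against 44.4% of tested genes. Rrp9, of small ribosomal subunit processing, read 9.47, 8.80, 9.32, 8.82 and 9.22, low at 1 and 6 h, but in AdenoCRE cells it was 0.06 above 0 h at 1 h. Neither list had a gene called by limma in the slope or at a single hour over both viruses, and 1 clock gene and 0 ribosome biogenesis genes had an upward slope at an unadjusted p below 0.05, and 1 and 2 a downward one.

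Further lists varied in how near their slopes lay to that of all tested genes. The median slope per hour was -0.001 for 15 ribosomal protein genes, 0.018 for 25 proteasome genes, -0.003 for 33 extracellular matrix genes, 0.008 for 14 heat shock genes, -0.002 for 24 glycolysis and hypoxia genes, and -0.013 for 24 sterol and fatty acid synthesis genes, against 0.006 for all tested genes. The small slopes of the ribosomal protein, extracellular matrix, heat shock and glycolysis lists changed sign in at least 1 other setting. Sterol and fatty acid genes had a median change of -0.08 at 9 h, against -0.52 in AdenoCRE cells. Of the 25 proteasome genes 13 had both late arrays above both early ones, against 26.0% of tested genes. The median slope was 0.027 for 20 excision and mismatch repair genes and 0.044 for 8 adipocyte and chondrocyte markers. In the BMP, TGF-beta and Notch list it was -0.029, or -0.020 without the 6 h array. Both late arrays lay below both early ones in 11 of its 22 members, against 21.1%. Tgfb3, a growth factor gene of that list, read 11.33, 11.60, 11.30, 10.52 and 10.58, low in both late arrays.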

How the data were processed

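The deposited values are log2 signals of Affymetrix arrays, 45101 probe sets on 30 arrays, made with RMA per the submitters' processing notes; the RMA version and the array software are not given in the sources used here. Of the probe sets 34958 carry 1 gene symbol, 932 several and 9211 none, and those with several or none were not named. The probe set with the highest mean stood for each gene. The lowest 40% of probe sets by mean over all arrays were left out (limit 4.544), which left 12674 genes.

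All adjusted p-values are from limma 3.58.1 (R 4.3.3) with eBayes and Benjamini-Hochberg adjustment over 12674 genes, called below 0.05. The AdenoGFP fits used 5 arrays. The slope difference used 10 arrays, with its own intercept and slope for each virus. The fit over both viruses was chosen after seeing the data. P-values measure scatter between arrays, which the labels do not say came from separate cultures. Arrays limit the precision by their number. The fits were tested on simulated data. In a table of 12674 genes the slope test recovered 91 of 100 genes changed by 2 log2 units over 9 h. It also called 12 unchanged genes there. In the AdenoGFP arrays Gch1 had a slope of 0.225 ± 0.043 per hour and was not called (limma, adjusted p = 0.404). The share of changed genes that the slope test recovers on the AdenoGFP arrays themselves was not tested.

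Named genes were those with the 12 smallest p-values of a comparison if called, the 10 highest and 10 lowest late minus early differences without overlap, the 6 highest and 6 lowest changes at 1 and 3 h, the 6 smallest p-values of the slope difference in each direction, up to 4 members per list by slope p, and Cdkn1a and Mdm2. Other genes of the fit over both viruses and further list members were chosen after their values were seen. The members and lists were chosen with earlier results of these data known. Scaling, filter, probe-set rule, variance model, time scale and arrays left out were varied. Gene names and promoters are from RefSeq (GRCm38.p6). The 20 arrays of the siRNA experiments, Trp53, Bax, Gdf15 and Ccnb1 were not analysed here.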

Additional observations from a re-analysis of the deposited data

Results flagged for a closer look

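In 6 genes the slope on hours differed between the viruses by a limma test of the difference itself (AdenoCRE minus AdenoGFP, log2 per hour, 5 arrays a virus): Tnfrsf18 by 0.493 ± 0.042, Celf5 by 0.49 ± 0.057, Slc4a11 by 0.44 ± 0.054, Notch3 by 0.428 ± 0.052, Acaa1b by 0.427 ± 0.047 and Ppp1r14a by 0.339 ± 0.041. Each had a higher slope with p53 restored, with an adjusted p of 0.00587 for Tnfrsf18 and 0.0233 for Slc4a11. These were the 6 smallest p-values of that test among genes with a proper symbol. Tnfrsf18 and Acaa1b lay below the low-signal limit on every AdenoGFP array, so their AdenoGFP slopes are those of background signal. Neither was tested with the filter set on the AdenoGFP arrays, where the other 4 were still called. Of those 4, Celf5 read 4.55, 4.47, 4.53, 4.39 and 4.59 at 0, 1, 3, 6 and 9 h in AdenoGFP cells. It thus lay below the low-signal limit at 1, 3 and 6 h and just above it at 0 and 9 h. The AdenoGFP slope of Celf5 is therefore also one of signal near background.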

How the results depend on the processing

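The median slopes of the immediate early, DNA replication, G1 to S, nucleotide, interferon, unfolded protein, splicing and SRF lists kept their sign in every setting. Of 2440 slopes of named single genes under other settings 2428 kept their direction. Part of that count was fixed in advance: filters, the variance model and adding the AdenoCRE arrays leave the slope of a gene unchanged. Many of these genes were also named for a small slope p in the same arrays. The count is therefore no measure of robustness. Centred arrays, quantile scaling and the mean of probe sets each called 0 genes higher and 0 lower at 3 h over both viruses. Quantile scaling called 3 lower at 1 h, 88 higher and 95 lower at 6 h, and 17 and 9 at 9 h, and put 146 genes at least 2-fold above and 145 below 0 h at 6 h in AdenoGFP cells. The mean of probe sets called 18 higher and 16 lower at 9 h. eBayes with trend and robust called 6 and 6 at 3 h, 127 and 389 at 6 h, 121 and 113 at 9 h, and 41 slope differences. Leaving out the lowest 60% called 3 lower at 1 h, 1 lower at 3 h and 9 slope differences. A filter on the AdenoGFP arrays called 7 lower at 9 h and 8 slope differences, no filter 7 lower at 9 h, and log2(hours + 1) 5 slope differences. With the AdenoCRE arrays in the fit 1 slope and 2 late minus early differences were called higher. At least 1.5-fold gave 191 genes above and 152 below at 1 h, 165 and 287 at 3 h, 481 and 1322 at 6 h, and 589 and 220 at 9 h.

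Leaving out each AdenoGFP array gave, over both viruses, 13 to 39 genes higher and 1 to 91 lower at 1 h, 0 to 3 and 0 to 4 at 3 h, 0 to 70 and 0 to 299 at 6 h, and 0 to 11 and 0 to 6 at 9 h. It gave 0 to 23 slope differences, and 0 to 151 late minus early differences higher and 0 to 592 lower. The cause was not tested.

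Uncalled values that changed sign were the slopes of Actc1 (-0.029 to 0.021 leaving out each array, 0.001 without the 1 h array), Chrna1 (-0.046 to 0.014, 0.001 without the 6 h array, 0.003 with quantile scaling and no 6 h array), Myog (-0.011 without the 6 h array to 0.11 without the 9 h array, -0.009 also quantile scaled) and Srm (-0.041 to 0.015, the latter without the 9 h array). With the mean of probe sets so did Des (0.012), Odc1 (0.049), Pes1 (-0.01) and Timp3 (-0.012). For 0 h against 3, 6 and 9 h the late differences of Btg2 (0.042) and Egr2 (0.0) turned. Over both viruses Psrc1 at 3 h ran from -0.548 to 0.148 (without the 0 h array; 0.078 without the 3 h array), and Swsap1 at 1 h from -0.568 to 0.006 (without the 1 h array). Pairing the viruses by time, with the 5 times as a block, called 23 slope differences, as many as without it. No paired analysis was possible because of the lack of replicate numbers other than this pairing by time: each time and virus has 1 array, and the siRNA arrays that carry numbers were not used here.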
